A study of Microtus ochrogaster with 40 samples.

Results

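The nuclei described here are Cpne7-positive, D2-gated nuclei of the nucleus accumbens of the prairie vole (Microtus ochrogaster), 2098 of 185995 nuclei kept in all. They were chosen by measured values. A nucleus was a member if it held at least 1 UMI (a counted RNA molecule) over DRD2, Gpr6 and Adora2a, at least 1 UMI of Cpne7, and none of DRD1A, Otof and Slc17a7. The libraries were droplet-based single-nucleus RNA libraries of 40 animals, 1 animal per library, housed for 16 days either with an opposite-sex partner (mate) or with a same-sex partner (peer). The 4 groups were 11 female mates, 8 female peers, 11 male mates and 10 male peers, with no other treatment, genotype or age given in the labels. The labels do not say which animals lived together. Taken in order, the label numbers form 20 pairs, 11 of a female and a male mate and 9 of 2 same-sex peers, and an alternative fit took these pairs as a block.

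The nucleus accumbens is the ventral part of the striatum and takes part in reward and social attachment. Most of its neurons are medium spiny neurons, inhibitory projection cells that carry either the dopamine D1 receptor, which raises cyclic AMP, or the dopamine D2 receptor, which lowers it. D2 cells classically make enkephalin from the precursor gene Penk and carry the adenosine receptor gene Adora2a and the orphan receptor gene Gpr6. Cpne7 encodes a copine, a protein that binds membrane phospholipids in the presence of calcium. The genes named together with these nuclei were Htr2a and Htr4, which encode serotonin receptors, Col6a2, which encodes a chain of type VI collagen, and Unc5c, which encodes a receptor for the guidance cue netrin.

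A library held between 1793 and 8204 kept nuclei and between 3002288 and 14907749 UMIs, and the median nucleus of a library held between 662 and 2201 UMIs. Male mate 2 was the shallow library. The 4 groups gave 741 (female mate), 345 (female peer), 573 (male mate) and 439 members (male peer). An animal gave between 16 and 136 members, with a median of 40. Male mate 6, with 16, was left out of the gene tests, which needed at least 20 members per animal and so used 39 animals. The summed members of an animal in those tests held between 25049 and 361572 UMIs, and the other D2-gated nuclei, which lacked Cpne7, between 270742 and 2981813. Barcode sequences of 487 members also occurred in another library, and 6 of them were members there too.

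The gate sat on low counts. Of 2712 nuclei with a UMI of a D2 gene and of Cpne7, 266 held DRD1A, 209 held Otof and 223 held Slc17a7 and were left out, a nucleus counting under each gene it held. A single UMI of DRD1A alone left out 100 of them, a single UMI of Otof alone 106, and a single UMI of Slc17a7 alone 95. Among members, 1517 held 1 UMI of Cpne7 and 581 held 2 or more, up to 7. The D2 genes summed to 1 UMI in 357 members. Pooled over nuclei, Htr2a was at 138 CPM (UMIs scaled to the total of the nuclei pooled) in members with 1 Cpne7 UMI, at 220 CPM in those with 2 or more, and at 30.2 CPM in the other D2-gated nuclei. Penk ran the other way, at 3006, 1296 and 5715 CPM. These values describe the gate and were not tested.

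Markers that the gate did not use went in part against the label of D2 medium spiny neuron. A list of 8 medium spiny neuron markers summed to 5803 ± 814 CPM (SD, n = 39 animals) in members and 6895 ± 587 CPM in the other D2-gated nuclei, and all 8 were detected. The remaining D2 markers, Penk, Gpr52 and Sp9, summed to 2375 ± 1132 CPM against 5748 ± 1230 CPM, lower in members. Penk made most of both sums. It alone was at 2192 ± 1122 CPM in members and, pooled over nuclei, at 5715 CPM in the others. In the gene tests described further on, Penk and Gpr52 were called lower and Sp9 was not called. The 7 D1 medium spiny markers other than DRD1A summed to 663 ± 317 CPM in members and 318 ± 111 CPM in the others, and Tac1 alone was at 552 ± 307 and 229 ± 102 CPM of these. The 4 markers of eccentric medium spiny neurons found in the files, other than Otof, summed to 195 ± 72.5 against 91.8 ± 17.1 CPM. In cluster 2, which held 52.8% of members and is described further on, the nuclei pooled were at 7924 CPM of the medium spiny list, at 599 CPM of the remaining D2 markers and at 1313 CPM of the D1 markers, of which Tac1 alone made 1195 CPM. The nuclei are called by their gate. A list of 10 interneuron markers summed to 639 CPM in members, ranging from 62.8 to 2149 CPM over animals, against 219 CPM (36.9 to 550) in the others. An interneuron-marker UMI was present in 29.3% of members and 11.9% of the others. Markers of astrocytes (312 against 561 CPM), oligodendrocytes (222 against 538 CPM), microglia (36.5 against 73.2 CPM) and vascular cells (13.4 against 45.9 CPM) had lower means in members. Pooled over nuclei, the members with a single UMI over the D2 genes carried 745 CPM of Vip, a peptide of interneurons, against 24.8 CPM in the rest. Few nuclei made these values, as a Vip UMI was present in 3.92% of the 357 single-UMI members and 0.632% of the rest. Median depth was 2160 UMIs in members and 1872 in the others, and 5.58% and 3.93% of them were scored as doublets. For these reasons the count of genes called and those of most gene lists are also given for a medium spiny subset of 1385 members (66.0%), chosen after seeing the data, which had at least 3 UMIs of the medium spiny markers, more of these than of glial and vascular markers together, and no interneuron-marker UMI.

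Free RNA in the droplets can place a UMI in a nucleus that does not make it, so the share of nuclei with Cpne7 was set beside that of glia at 1000 UMIs per nucleus. It was 3.86% of D2-gated nuclei (exact 95% interval 3.64 to 4.08), 1.20% of D1-gated nuclei (1.07 to 1.33), 0.556% of oligodendrocyte-gated (0.312 to 0.915), 0.457% of astrocyte-gated (0.25 to 0.766) and 0.377% of microglia-gated nuclei (0.00955 to 2.08). Nuclei with fewer UMIs were left out, and the intervals cover counting error only. The nuclei kept had median depths, before thinning, of 2016, 2108, 1311, 1162 and 1261 UMIs in the same order. The unthinned shares were 6.30%, 2.32%, 0.344%, 0.59% and 0.214%. In 2 other classes, which the gate leaves out, the share lay above that of D1-gated nuclei. It was 2.40% of nuclei with Slc17a7 and 2.26% of nuclei with Otof at 1000 UMIs, and 4.75% and 5.09% unthinned.

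The 33312 D2-gated nuclei were clustered without the 7 genes of the gate, which gave 15 clusters. All of them held members. Cluster 2 held the most, 1108 (52.8%), and the rest were spread over the others. Cluster 2 was led by Tac1, Htr2a, Scube1, Rxfp1, Sema5b, Fgfr1, Adra1a, Grin3a and Pcdh20. Tac1 encodes the precursor of substance P and is best known from D1 medium spiny neurons. Per animal, cluster 2 took 53.7% ± 15.0 (SD, n = 39) of members, from 22.5% to 88.1%, and 11.1% ± 3.49 of the other D2-gated nuclei, from 3.80% to 17.9%. The share was higher in members in all 39 animals, and the 2 ranges did not overlap. Since clusters and members were both drawn from the counts of the same nuclei, this was not tested.

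**Figure D1:**
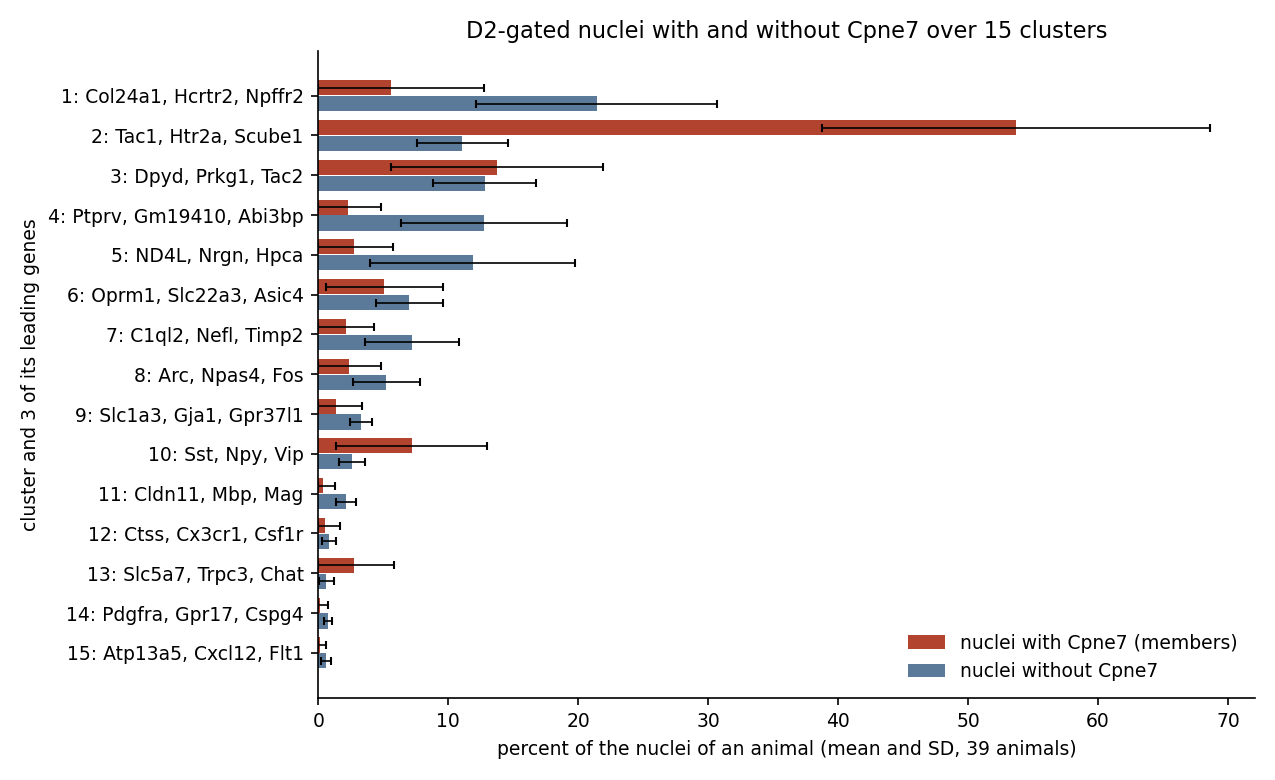
Percent of an animal's Cpne7-positive (red) and Cpne7-negative (blue) D2-gated nuclei in each of 15 clusters, as mean and SD over 39 animals, with 3 leading genes per cluster. Cluster 2 holds 53.7% of members and 11.1% of the other nuclei.

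After thinning to 1000 UMIs, 14.9% of the nuclei of cluster 2 held a Cpne7 UMI (exact 95% interval 13.9 to 16.0, over pooled nuclei, counting error only). At a pooled Cpne7 level of 188 CPM a nucleus without such a UMI may still express the gene, so this is no share of expressing nuclei. The same share was 8.2% in cluster 10, 8.1% in cluster 13, 4.5% in cluster 3 and 1.2% in cluster 1. Unthinned, it was 24.1% in cluster 2 and 23.6% in cluster 13, at median depths of 1951 and 3169 UMIs, and 14.7% in cluster 10. Further members lay in cluster 3 (306 members, 14.6%), led by Dpyd, Prkg1, Tac2 and Oprm1, the mu opioid receptor gene, and in cluster 1 (122 members, 5.82%), led by Col24a1 and the orexin receptor gene Hcrtr2. Cluster 10 (138 members, 6.58%) was led by the interneuron genes Sst, Npy, Vip and Kit. Cluster 13 (54 members, 2.57%) was led by Slc5a7, Chat and Lhx8, genes of cholinergic neurons. The named serotonin receptor Htr2a was at 304 CPM in the members of cluster 2 and at 20.7 CPM in the members outside it, pooled over nuclei. Penk was at 413 CPM in the members of cluster 2 and at 4574 CPM outside it.

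The 4 genes named with these nuclei were described without a test, because they were part of the choice. Htr2a ran from 31.2 to 450 CPM over animals in members (median 150) and from 7.59 to 62.4 CPM (median 29.3) in the other D2-gated nuclei. Members were higher in all 39 animals, with an estimated log2 fold change of 2.41 (SE 0.08). Col6a2 ran from 0 to 229 CPM (median 66.7) in members and from 0.484 to 65.8 CPM (median 7.15) in the others, and was higher in members in 37 animals (3.09, SE 0.16). Htr4 overlapped far more, at 58.1 to 368 CPM (median 224) against 118 to 243 CPM (median 169), and was higher in members in 32 animals (0.33, SE 0.06). Unc5c was at 62.8 to 239 CPM (median 119) against 36.9 to 108 CPM (median 82.7), higher in 34 animals (0.62, SE 0.07). Pooled over the nuclei outside cluster 2, Htr4 was lower in members, at 138.5 CPM against 169 CPM in the other D2-gated nuclei. The other 3 genes were higher in members there, Unc5c at 75.5 against 67.8 CPM, Htr2a at 20.7 against 8.55 CPM and Col6a2 at 14.1 against 3.49 CPM.

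Of 6964 genes tested by edgeR's quasi-likelihood test with the animal as a block, 960 (13.8%) were higher in members and 1016 (14.6%) lower than in the other D2-gated nuclei of the same animals (28.4% in all). Genes were called at a Benjamini-Hochberg adjusted p under 0.05, and the 7 genes of the gate stayed out. DESeq2 called 933 higher and 924 lower. In the medium spiny subset (29 animals, 5467 genes) 18.1% of genes were called, 510 higher and 477 lower. Within cluster 2 alone (24 animals, 888 members and 2637 other nuclei, 3935 genes), a comparison added after seeing the data, 5.26% were called, 89 higher and 118 lower, as a description, since the cluster was drawn from the same counts. Nuclei were chosen by a UMI of Cpne7, so the comparison says what went with such a UMI in the same nuclei. The parts that cluster makeup and interneuron nuclei take in it were not tested beyond these fits.

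Rxfp1 and Scube1 had the largest rises among the genes that met the naming rule. Rxfp1, the receptor for relaxin, ran from 0 to 359 CPM (median 109) in members and from 0 to 29.7 CPM (median 6.19) in the others. It was higher in members in 38 of 39 animals, by 3.82 on the log2 scale (SE 0.17, edgeR adjusted p 3.23e-35). Scube1, a secreted and membrane-bound EGF-repeat protein, was at 0 to 286 CPM (median 136) in members and 6.88 to 43.5 CPM (median 13.5) in the others, higher in 37 animals (3.1, SE 0.11, edgeR adjusted p 8.98e-43). Most animals' members lay above every value of the other nuclei for both genes, and a few animals overlapped.

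Adra1a, the alpha-1A adrenergic receptor gene, was at 31.4 to 301 CPM (median 156) in members and 7.87 to 50.3 CPM (median 23.9) in the others (2.61, SE 0.10, edgeR adjusted p 1.33e-40). Dlk1, a Delta-like ligand of the Notch family, was at 15.9 to 346 CPM (median 157) against 2.78 to 73.9 CPM (median 27.9; 2.46, SE 0.11). Both were higher in members in all 39 animals. Next came Pcdh8, a protocadherin gene (log2 fold change 2.36), Elavl4, a neuronal RNA-binding protein (2.18), Grin3a, an NMDA receptor subunit (2.01), Fgfr1, a fibroblast growth factor receptor (1.90), Iqsec3, an exchange factor of inhibitory synapses (1.89), and Sphkap, an anchoring protein of protein kinase A (1.63). The naming rule also took in Col6a2 and Htr2a, which are given above as a description only. Those tested in the medium spiny subset were called there as well: Scube1 (2.98), Adra1a (2.74), Dlk1 (2.29), Grin3a (2.20), Fgfr1 (1.84) and Iqsec3 (1.70). Rxfp1, Pcdh8, Elavl4 and Sphkap did not pass the low-count filter of that subset. Their mean levels there were 109 against 6.95 CPM for Rxfp1, 60.2 against 10.0 CPM for Pcdh8, 63.0 against 14.0 CPM for Elavl4 and 61.7 against 24.4 CPM for Sphkap.

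**Figure D2:**
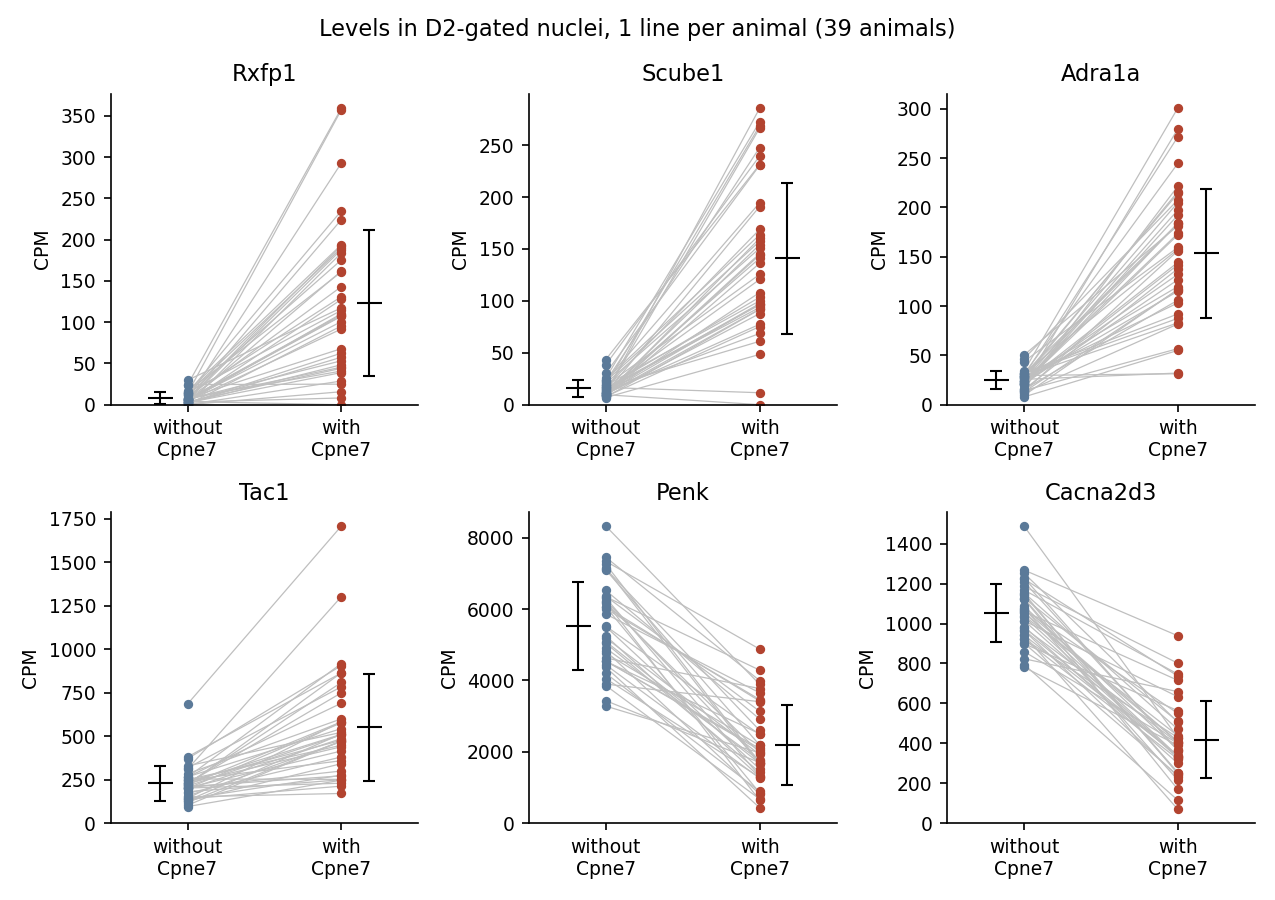
Levels in CPM of 6 genes in Cpne7-negative (blue) and Cpne7-positive (red) D2-gated nuclei, 1 line per animal (39 animals), with mean and SD in black and an axis of its own for each gene. Rxfp1, Scube1, Adra1a and Tac1 are higher and Penk and Cacna2d3 lower in members in at least 37 of 39 animals.

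Among the genes that were lower, Penk stood at 433 to 4879 CPM (median 1971) in members and 3281 to 8327 CPM (median 5507) in the other D2-gated nuclei. Its level fell by 1.42 on the log2 scale in members, which were lower in all 39 animals (SE 0.08, edgeR adjusted p 5.39e-29), and the 2 sets of animals overlapped. Ptprv, a receptor-type tyrosine phosphatase gene, was at 0 to 114 CPM (median 32.4) in members and 121 to 376 CPM (median 245) in the others, without overlap (-2.46, SE 0.11). Cacna2d3, an auxiliary subunit of calcium channels, was at 69.2 to 939 CPM (median 390) against 781 to 1488 CPM (median 1057; -1.37, SE 0.07). Further falls were those of Col24a1 (-1.98), Cldn11 (-1.88), Selenop (-1.82), Tnxb (-1.72), Plxnd1 (-1.64), Kctd1 (-1.42), Rasgrp2 (-1.36) and Ano3 (-1.36). Cldn11 is a myelin gene, and the summed oligodendrocyte markers were lower in members too (222 against 538 CPM). In the medium spiny subset Ptprv (-2.18), Col24a1 (-1.63), Plxnd1 (-1.26), Kctd1 (-1.21), Cacna2d3 (-1.15), Rasgrp2 (-1.11), Penk (-1.06) and Ano3 (-1.05) fell as well. Cldn11, Selenop and Tnxb did not pass its low-count filter. Cldn11 was there at 12.8 CPM in members and 11.0 CPM in the others, lower in 18 of 29 animals, Selenop at 8.81 against 11.8 CPM and Tnxb at 17.1 against 49.5 CPM.

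Genes of the striatal cyclic AMP cascade were more often lower in members. Of 28 tested, 4 rose and 19 fell, with a median log2 fold change of -0.29 against 0.00 over all genes tested, of which 13.8% rose and 14.6% fell. Rasd2, a striatal GTP-binding protein, fell by 0.82, Pde7b, a phosphodiesterase, by 0.71, Rgs9, the striatal regulator of G protein signalling, by 0.58, Pde10a, the main striatal phosphodiesterase, by 0.56, and Ppp1r1b, which encodes DARPP-32, by 0.39, all on the log2 scale. Adcy2, an adenylyl cyclase gene, rose by 1.23 among all members. Its means in the medium spiny subset, where it was not tested, were 12.3 and 9.52 CPM. In that subset 1 gene of this cascade rose and 13 fell of 25, where 9.33% of all genes tested rose and 8.73% fell. Of the 8 medium spiny neuron markers, 1 rose (Meis2, 0.21) and 5 fell, among them Rgs9, Ppp1r1b, Pde10a and Rarb. Potassium channel genes also leaned lower, with 3 of 32 up and 17 down and a median of -0.23, Kcna4 falling by 1.00 and Kcnh7 by 0.97, while Kcnh5 rose by 1.23. Of 29 potassium channel genes in the medium spiny subset, 1 rose and 9 fell, with a median of -0.14.

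Peptide genes and their receptors split, with 5 of 16 higher and 7 lower, where 13.8% of all genes tested rose and 14.6% fell (9.33% and 8.73% in the medium spiny subset). Tac1 was at 171 to 1709 CPM (median 486) in members and 95.4 to 685 CPM (median 221) in the others, higher in 38 of 39 animals (1.25, SE 0.07, edgeR adjusted p 2.35e-30). Oprk1, the kappa opioid receptor gene, was at 0 to 143 CPM (median 55.9) against 111 to 233 CPM (median 166), lower in all 39 animals (-1.35, SE 0.08). Npy rose by 1.24 among all members, with 115 ± 110 CPM against 54.8 ± 35.7 CPM (SD, n = 39); the medium spiny subset holds no Npy by construction. Receptor subunits for glutamate split evenly, 5 up and 5 down of 16, among them Grin3a and Grik3 (0.34) up and Grm3 (-1.14) and Grm7 (-1.07), genes of metabotropic glutamate receptors, down. Of 13 GABA receptor genes, 3 rose, Gabra3 (0.78), Gabrg3 (0.72) and Gabra2, and 5 fell, among them Gabrb2 (-0.98) and Gabrd (-0.75). Calcium and sodium channel genes gave 9 up and 8 down of 27, with Cacna2d2 at 0.92 and Scn4b, a sodium channel beta subunit of striatal neurons, at -0.87. The 2 serotonin receptor genes tested apart from Htr2a and Htr4 did not pass in either direction. Of 9 peptide and receptor genes in the medium spiny subset 2 rose and 5 fell, while 3 glutamate receptor genes rose and 4 fell of 16, 3 GABA receptor genes rose and 5 fell of 13, and 7 calcium and sodium channel genes rose and 5 fell of 26.

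Guidance and adhesion genes changed in both directions, against 13.8% higher and 14.6% lower over all genes tested. Of 31 axon guidance genes 9 rose and 15 fell, with Sema5b (1.58) and Sema6d (1.35), both transmembrane semaphorins, up and Plxnd1 and Ephb1 (-1.25) down. Of 16 cadherin and protocadherin genes 7 rose and 5 fell, with Pcdh8, Pcdh20 (1.23) and Pcdh7 (0.73) up. Neurexins, neuroligins, teneurins and their partners gave 7 up and 7 down of 21, with Flrt2 (0.76) and Lrrtm2 (0.74) up and Cntn3 (-0.81) and Nlgn1 (-0.80) down. Of the other copines, Cpne8 rose by 0.52, while Cpne5 fell by 0.47 and Cpne6 fell by 0.69, of 5 tested. Of 3 collagen genes tested apart from Col6a2, Col11a1 rose (0.55) and Col24a1 fell. Counts in the medium spiny subset, where 9.33% of all genes rose and 8.73% fell, were 4 up and 9 down of 25 guidance genes, 4 up and 2 down of 13 cadherins and protocadherins, and 6 up and 7 down of 21 neurexins, neuroligins, teneurins and partners.

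The striosome and the matrix are 2 compartments of the striatum that differ in their genes. The counts here again stand beside 13.8% higher and 14.6% lower over all genes tested, and 9.33% and 8.73% in the medium spiny subset. Of 5 striosome-associated genes, Tac1 and Sema5b rose and Necab1 (-0.48) and Lypd1 (-0.75) fell. Of 7 matrix-associated genes, Calb1 rose and 6 fell, Sgk1 by 1.02, Id4 by 0.83 and Epha4 by 0.48 on the log2 scale among them, with a median of -0.48. Of 14 immediate early genes, which respond to neuronal activity, 9 rose and 1 fell (Nptx2), with a median of 0.40. Fos was at 0 to 500 CPM (median 68.2) in members and 10.9 to 94.8 CPM (median 35.3) in the others, higher in 29 of 39 animals (1.06, SE 0.13, edgeR adjusted p 6.89e-11). Nr4a3 (0.91), Fosb (0.90) and Nr4a1 (0.84) rose too. With a stricter gate of 2 UMIs (10 animals) Fosb turned negative, and the genes no longer called there are given further on. Cluster 8, the one led by Arc, Npas4 and Fos, held 2.72% of members and 5.21% of the other D2-gated nuclei. Its share was higher in members in 6 of 39 animals, which was not tested. Of 24 striatal transcription factors 5 rose, with Meis1 (1.13) and Six3 (0.72) first, and 10 fell, Rora (-0.68) among them. Of 6 matrix-associated genes in the medium spiny subset 1 rose and 3 fell, with a median of -0.26, 8 immediate early genes rose and 0 fell of 11, and 4 transcription factors rose and 4 fell of 18.

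Within cluster 2 most of the named differences were closer to 0, and several changed sign. The cluster was drawn from the same counts, and Tac1, Rxfp1, Scube1 and Adra1a are among the genes that lead it, so nuclei without Cpne7 may have entered it through the genes compared. The values inside it are therefore a description, given without p-values. Rxfp1 was at 217 CPM in members and 59.2 CPM in the other nuclei of the cluster, higher in all 24 animals (log2 fold change 1.87, SE 0.12). Iqsec3 (1.36), Scube1 (1.16), Adra1a (1.13), Dlk1 (1.07), Sema6d (0.58), Elavl4 (0.52), Fgfr1 (0.42) and Grin3a (0.38) had positive log2 fold changes. Cacna2d3 was at 55.7 against 199 CPM (-1.83, SE 0.14), against -1.37 among all D2-gated nuclei. Oprk1 (-0.96), Scn4b (-0.57), Rasd2 (-0.53), Pde10a (-0.52), Ano3 (-0.47), Kcna4 (-0.36), Rgs9 (-0.33), Gabrd (-0.32) and Penk (-0.29) had negative ones. Penk averaged 336 CPM in members of cluster 2 and 427 CPM in the other nuclei of it over the 24 animals. Pooled over all nuclei of the cluster, the levels lay close together, at 413 and 427 CPM. A Penk UMI was present in 32.4% of these members and 25.8% of the others, at median depths of 2176 and 1870 UMIs.

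Tac1 changed sign within cluster 2. It was at 867 CPM in members and 1239 CPM in the other nuclei of the cluster, lower in 23 of 24 animals (-0.48, SE 0.05), against 1.25 among all D2-gated nuclei. Pcdh7 did as well (-0.23, SE 0.06). Sphkap, Sema5b, Pcdh20, Gabra3, Cpne8 and Col11a1 lay between -0.14 and -0.02. Of the immediate early genes, Fos was at 0.09, Nr4a1 at 0.11 and Nr4a3 at 0.18. The fit called 5.26% of all genes in the cluster. It called 0 genes of the immediate early list up and 2 down of 11, and 0 genes of the cyclic AMP list up and 9 down of 22. These counts are likewise a description and no test, since the cluster was drawn from the same counts. Htr2a was at 307 against 220 CPM, Col6a2 at 139 against 49.4 CPM, Htr4 at 307 against 255 CPM and Unc5c at 181 against 204 CPM.

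**Figure D3:**
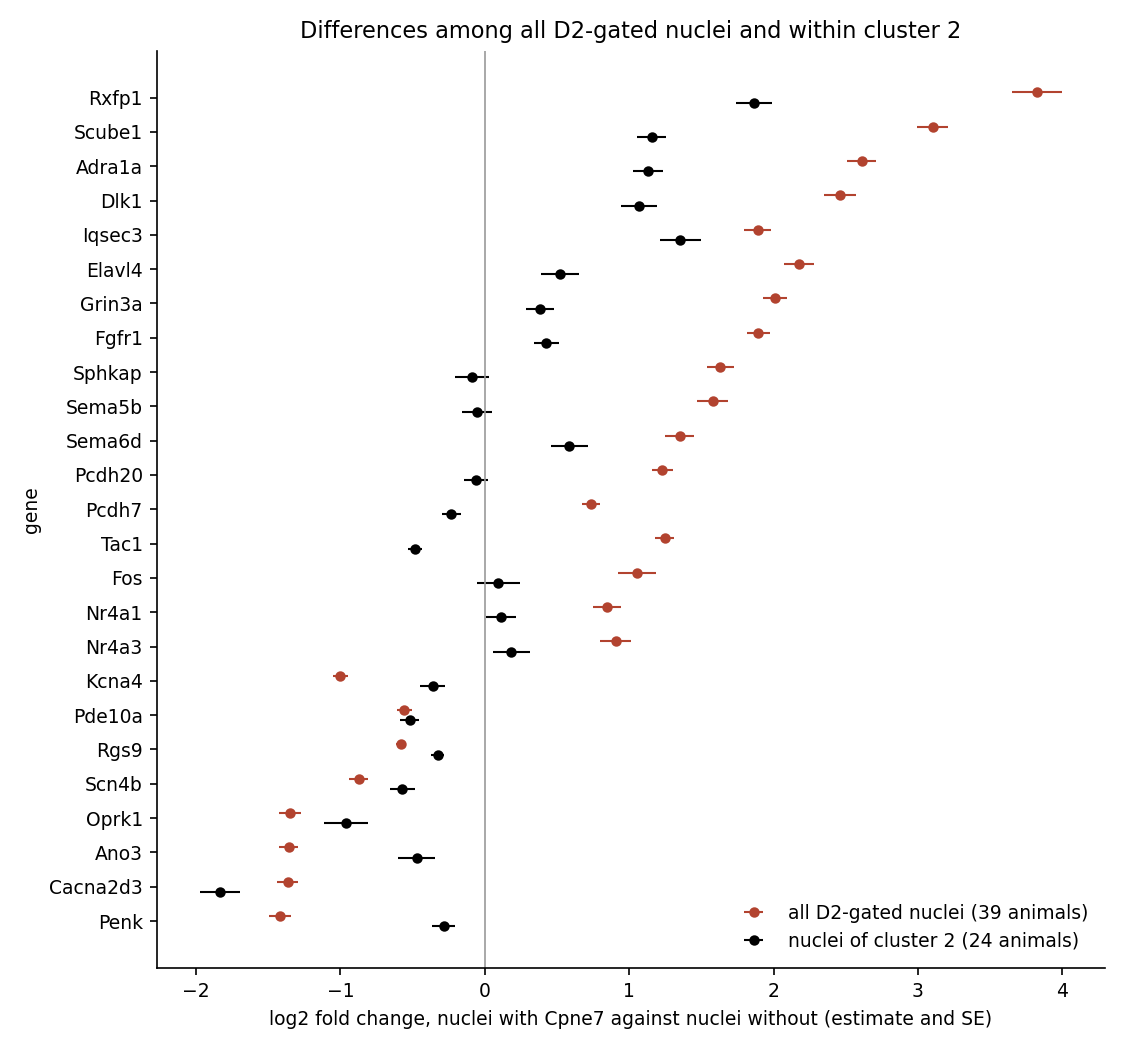
Log2 fold changes (points) with standard errors (bars) of Cpne7-positive against Cpne7-negative nuclei, over all D2-gated nuclei (red, 39 animals) and within cluster 2 only (black, 24 animals). Rxfp1 falls from 3.82 to 1.87 and Tac1 goes from 1.25 to -0.48, while Cacna2d3 stays negative.

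The same split by Cpne7 was made in D1-gated nuclei, which held DRD1A and none of the D2 genes, Otof and Slc17a7, 705 with Cpne7 and 29734 without. In 12 animals with at least 20 nuclei of all 4 kinds, the difference between the D2 and the D1 contrast was called by edgeR for 183 of 7504 genes (2.44%), 118 higher and 65 lower on the D2 side. Scube1 was at 151 ± 65.4 CPM in members and 19.3 ± 10.1 in the other D2-gated nuclei, and at 7.25 ± 7.75 and 4.42 ± 2.74 in D1-gated nuclei with and without Cpne7 (SD, n = 12). The log2 fold changes of 3.01 and 0.53 differed by 2.48 (SE 0.54, edgeR adjusted p 0.00241), in the same direction in 12 of 12 animals. Sema5b (difference 2.09), Grin3a (1.93), Pcsk1 (1.84), a peptide-processing enzyme, Fgfr1 (1.76), Pcdh8 (1.75), Sema3e (1.55), Tac1 (1.52), Gpr26 (1.39), Lrfn3 (1.30) and Fos (1.23) followed. Tac1 was at 536 against 202 CPM in D2-gated nuclei with and without Cpne7, and at 1510 against 1666 CPM in D1-gated nuclei. The Dlk1 contrasts of 2.46 and 1.18 differed too (1.28, edgeR adjusted p 0.00058). Other leading genes moved the same way in D1-gated nuclei, and the difference was not called. Adra1a had log2 fold changes of 2.66 in D2-gated and 1.71 in D1-gated nuclei (edgeR adjusted p of the difference 0.0548), Elavl4 of 2.00 and 1.17 (0.0501), Iqsec3 of 1.57 and 0.95 (0.126) and Sphkap of 1.5 and 1.02 (0.549). Penk fell in both, by 0.97 and by 1.49 (difference 0.52, SE 0.35, edgeR adjusted p 0.594). Each of these 5 D1 contrasts was itself called, with edgeR adjusted p-values up to 0.0306. With at least 5 nuclei of each kind (38 animals, 7814 genes), 634 genes were called higher and 337 lower on the D2 side. The difference was called there for Adra1a (0.62), Elavl4 (1.14), Iqsec3 (0.85) and Sphkap (0.87) and not for Penk (-0.03, edgeR adjusted p 0.973). The medium spiny subset with at least 5 nuclei of each kind (27 animals) gave smaller D1 contrasts, 1.00 for Adra1a, 0.20 for Elavl4 and 0.36 for Iqsec3. The differences were called there, at 1.90 (edgeR adjusted p 0.000236), 2.08 (4.67e-08) and 1.30 (2.83e-05), while that of Penk was not (0.41, edgeR adjusted p 0.687). Htr2a, given without a test, had log2 fold changes of 2.51 in D2-gated and 0.96 in D1-gated nuclei.

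On the other side stood the peptide genes Cck and Nts and the cannabinoid receptor gene Cnr1. Cck was at 39.5 ± 30.3 CPM in members and 36.7 ± 27.2 in the other D2-gated nuclei, and at 680 ± 468 CPM in D1-gated nuclei with Cpne7 and 42.4 ± 22.3 without (SD, n = 12). The difference of the 2 contrasts was -3.89 (SE 0.35, edgeR adjusted p 3.33e-13). Nts (-3.09), Cnr1 (-2.73), Zeb2 (-2.17), Laptm4b (-1.83), Pde4d (-1.73), Thsd7a (-1.66), Il1rap (-1.29), Cxcl14 (-1.27), Gabrb2 (-1.25) and Bhlhe41 (-1.18) followed. The D1-gated nuclei with Cpne7 carried 1003 CPM of summed interneuron markers (40.8 to 2208 over the 12 animals), against 569 CPM (172 to 1199) in those without, and 4041 against 5793 CPM of the medium spiny markers. Their part in these differences was not tested beyond the subset. In the medium spiny subset with at least 5 nuclei of each kind (27 animals), Cnr1 (-0.33, edgeR adjusted p 0.388), Il1rap (-0.59, 0.266) and Cxcl14 (0.26, 0.815) did not pass. Cck, Zeb2, Laptm4b, Pde4d and, on the D2 side, Lrfn3 did not pass its low-count filter and were not tested there. Nts (-2.05), Thsd7a (-1.10), Gabrb2 (-0.80) and Bhlhe41 (-0.88) were called there. On the D2 side Scube1 (2.36), Sema5b (1.79), Grin3a (2.61), Fgfr1 (1.78), Pcdh8 (2.57) and Tac1 (0.98) were called, while Fos was not (1.04, edgeR adjusted p 0.0599).

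By list, the counts of called differences between the D2 and D1 contrasts stand beside 1.57% higher and 0.866% lower over all genes tested. Of 30 genes of the cyclic AMP cascade, 1 was higher on the D2 side (Adcy3) and 1 lower (Pde4d), with a median difference of 0.01 on the log2 scale, the same as over all genes tested. Of 23 neurexins, neuroligins, teneurins and partners, 4 were higher (Adgrl2, Flrt2, Lrrtm2 and Tenm1) and 0 lower. Of 18 cadherins and protocadherins, Pcdh7 and Pcdh8 were higher, and of 33 axon guidance genes 3 were higher (Ephb6, Sema3e and Sema5b) and 4 lower (Epha5, Epha6, Slit1 and Unc5a). Of 14 GABA receptor genes, 2 were higher (Gabra3 and Gabrg3) and 2 lower, Gabrb2 among them. Fos and Nr4a3 were higher among 16 immediate early genes, with a median of 0.22. Among 29 striatal transcription factors, Mef2a, Meis1, Meis2 and Six3 were higher and Rora and Zfhx3 lower. None of 7 matrix-associated genes was called. In the medium spiny subset with at least 5 nuclei of each kind, 11 of the genes named here did not pass. They were Nr4a3 (edgeR adjusted p 0.0525), Fos (0.0599), Slit1 (0.0603), Flrt2 (0.118), Zfhx3 (0.144), Mef2a (0.159), Gabrg3 (0.178), Epha6 (0.35), Unc5a (0.445), Rora (0.547) and Epha5 (0.849). Meis1 and Pde4d did not pass its low-count filter.

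**Figure D4:**
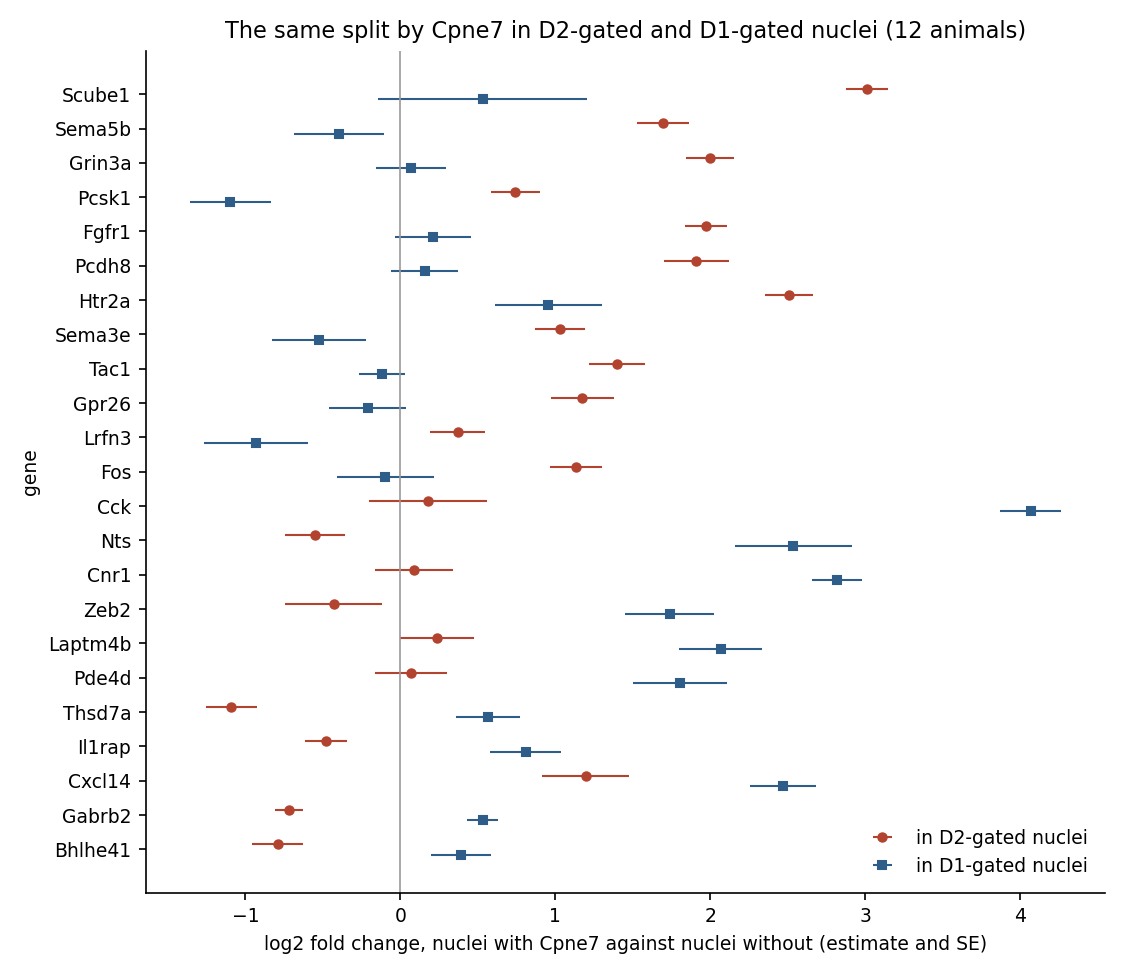
Log2 fold changes (points) with standard errors (bars) of nuclei with Cpne7 against nuclei without, in D2-gated (red circles) and D1-gated nuclei (blue squares) of the same 12 animals. Scube1, Sema5b, Grin3a and Fgfr1 are higher on the D2 side, and Cck, Nts and Cnr1 on the D1 side, each with a called difference between the contrasts.

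Pairing was compared in members over the 39 animals with at least 20 of them, with all 4 groups in one edgeR fit of 3776 genes. None was called for mate minus peer (0.0%). An unadjusted p under 0.05 was reached by 154 genes in edgeR and by 129 in DESeq2, which also called 0. The lowest p was that of Vstm2a, at 108 to 288 CPM (median 178) in female mates, 186 to 463 (median 273) in female peers, 137 to 352 (median 197) in male mates and 150 to 315 (median 238) in male peers. All groups overlapped, and its log2 fold change of -0.47 (SE 0.12) had an edgeR adjusted p of 0.902. Per2, a circadian clock gene, was at 187 ± 39.1 CPM in mates (SD, n = 21) and 144 ± 38.0 CPM in peers (SD, n = 18), and Eif4a1 at 83.2 ± 26.8 and 115 ± 24.9 CPM, each with an edgeR adjusted p of 1. None of the genes on any of the 16 lists was called for pairing.

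For the interaction, in which the mate-peer difference of males is taken from that of females, 0 genes were called by edgeR (0.0%) and 0 by DESeq2, with 130 and 109 at an unadjusted p under 0.05. Erlec1 (log2 difference -1.12, SE 0.30), Nrbp2 (-1.07, SE 0.33) and Tmem91 (0.98, SE 0.29) had the lowest p, each with an edgeR adjusted p of 1. Among the genes that marked members, Rxfp1 was at 57.5 to 293 CPM (median 117) in female mates, 0 to 190 (median 44.6) in female peers, 8.11 to 359 (median 125) in male mates and 38.9 to 358 (median 120) in male peers. The lowest group was that of female peers, and the groups overlapped. Its interaction of 1.59 (SE 0.57) had an edgeR p of 0.00692 and an adjusted p of 1. Htr2a was at 153 ± 56.5 CPM in female mates, 122 ± 54.0 in female peers, 182 ± 73.5 in male mates and 165 ± 128 in male peers, with a pairing log2 fold change of 0.22 (SE 0.20). Cpne7 itself, which chose the nuclei, was at 602 ± 68.7, 521 ± 89.8, 713 ± 364 and 634 ± 166 CPM in the same order, and male mate 2, the shallow library, was the highest at 1717 CPM. Every member holds at least 1 Cpne7 UMI by the gate, so fewer UMIs per nucleus raise the lowest level Cpne7 can take.

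Between the sexes 1 gene of 3776 (0.0265%) was called by edgeR, with 192 at an unadjusted p under 0.05. Kdm5c, an X-linked histone demethylase gene, was at 160 to 342 CPM (median 215) in female mates, 191 to 357 (median 209) in female peers, 79.8 to 244 (median 152) in male mates and 109 to 182 (median 131) in male peers. Females (227 ± 52.5 CPM, SD, n = 19) were above males (149 ± 36.9 CPM, SD, n = 20) on average, with overlap, by 0.57 on the log2 scale (SE 0.11, edgeR adjusted p 0.00751). DESeq2 called Kdm5c and Kdm6a, a related demethylase gene, which had a log2 fold change of 0.52 and an edgeR adjusted p of 0.0663. In the medium spiny subset of 29 animals Kdm5c had a log2 fold change of 0.58 and did not pass (edgeR adjusted p 0.384).

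The share of D2-gated nuclei that were members was compared after thinning to 1000 UMIs, because a gate of 1 UMI depends on depth. Nuclei with fewer than 1000 UMIs were left out. Male mate 2 kept 647 nuclei, of which 68 were D2-gated and 3 were members. Male mate 6 kept 4 members and female peer 1 kept 8, and the most in an animal were 83 (female mate 8). Members made up 4.04% ± 1.30 (SD) of D2-gated nuclei in the 11 female mates, 4.04% ± 2.29 in the 8 female peers, 3.69% ± 1.87 in the 11 male mates and 3.54% ± 1.70 in the 10 male peers. Medians were 3.84%, 2.79%, 3.25% and 3.03%, and the full range of every group overlapped that of each other group. Two-sided permutation tests with 100000 resamples gave a difference of 0.0756 percentage points for mate minus peer (permutation p 0.895, adjusted p 0.895), 0.424 for female minus male (0.465, adjusted p 0.861) and -0.161 for the interaction (0.887, adjusted p 0.895). Of all nuclei, members made up 0.998%, 0.698%, 0.81% and 0.744% in the same order, and the 3 tests had adjusted p-values of 0.861, adjusted over the 6 share tests. Without thinning, members were 6.66% ± 1.54, 8.14% ± 4.79, 6.17% ± 2.79 and 6.00% ± 2.38 of D2-gated nuclei, so the unthinned mean was highest in female peers. The unthinned medians were 6.13%, 5.81%, 5.38% and 5.56%, highest in female mates. Within the medium spiny subset the differences in percentage points of D2-gated nuclei were 0.181 for mate minus peer, 0.499 for female minus male and -0.681 for the interaction, and the permutation tests of the 6 shares had adjusted p-values of 0.799 to 0.932. With animals of consecutive label numbers as pairs, mates minus peers was 0.104 percentage points of D2-gated nuclei over 11 and 9 pairs (permutation p 0.846), and females minus males within the 11 pairs of mates was 0.343 (exact sign-flip permutation p 0.61), with adjusted p-values of 0.612 to 0.846 over these tests and those of all nuclei. No difference in share exceeded the spread between animals.

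**Figure D5:**
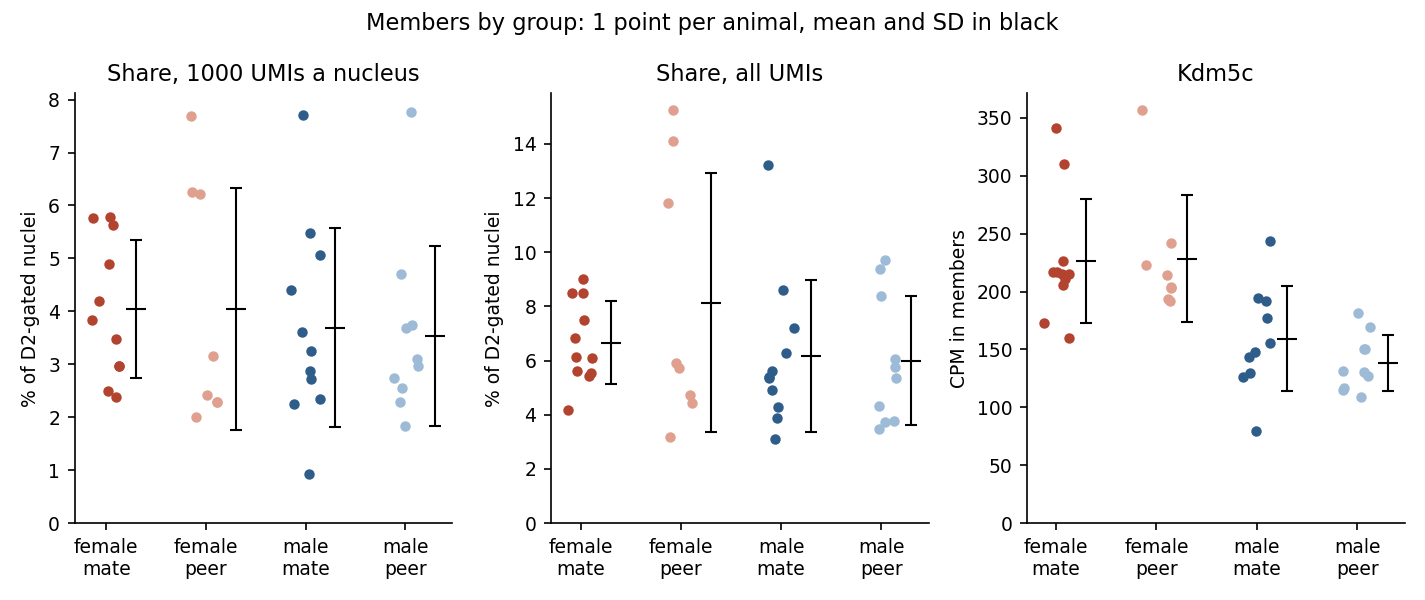
Members as a percent of D2-gated nuclei at 1000 UMIs per nucleus (left) and with all UMIs (middle), and Kdm5c in CPM in members (right), 1 point per animal with mean and SD in black. The ranges of the 4 groups overlap in part, and Kdm5c averages 227 CPM in females and 149 CPM in males.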

How the data were processed

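Raw UMI counts per gene and barcode, as deposited by the authors, were used for all 40 libraries (19130 genes, 194518 barcodes). Per the submitters' processing notes they were made with Cell Ranger 3.1.0. The aligner settings and the genome build are not given in the sources used here. Barcodes under 500 UMIs (6375, all in male mate 2) and over 5% mitochondrial UMIs (2148) were left out. No doublet filter was applied in the main analysis, as the gate has none. Doublets were scored for an alternative, at 0.8% of barcodes per 1000 barcodes.

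The members, the gene lists, the markers and the tests were chosen with earlier results of these data known. Counts were summed per animal and class of nuclei. Animals with at least 20 nuclei in each class entered edgeR 4.0.16 (limma 3.58.1, R 4.3.3) with TMM factors, filterByExpr and the quasi-likelihood test. DESeq2 1.42.0 was an alternative. Both nuclear classes of an animal came from 1 library, so the animal was a block in comparisons of classes. Labels number the animals from 1 to 40. No number is shared, and the main fits took animals as independent. Consecutive numbers, which may stand for animals housed together, were a random block in a limma-voom alternative added after seeing the data. Blocks of 10 of these numbers were a covariate in an alternative fit of the group comparisons. The p-values measure the spread between animals. CPM values are summed counts scaled to the total of the class. The edgeR fit was tested on simulated data.

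Genes were named by a rule. It took the 12 largest called rises and the 12 largest called falls with at least 20 CPM and the same direction in at least 90% of animals, on log2(CPM + 10). It added up to 4 called genes from each of 16 lists, and the 3 genes with the lowest p, or the called ones, for pairing, sex and interaction. Results of some genes that the rule took are not reported here. Kdm6a, the remaining serotonin, collagen and copine genes and the members' marker levels by group stand outside it and were chosen after their values were seen. Clusters used 2000 genes, 30 components, 15 neighbours and Leiden resolution 1 (leidenalg 0.10.2). Shares were tested by permutation in Python 3.11.15, and the exact intervals of the Cpne7 shares came from scipy 1.17.1. The alternatives were other tools, filters, gates, depths and subsets.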

Additional observations from a re-analysis of the deposited data

Results flagged for a closer look

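In 21 of 118 sets of values searched, each a group of 8 or 10 animals, the highest or lowest animal stood apart by more than Dixon's 95% limit, which chance alone does in about 5% of sets. Groups of 11 were not searched. The shares or counts of members stood apart in 4 sets. Male peer 1 had members at 7.77% of its D2-gated nuclei at 1000 UMIs, against 4.70% in the next male peer. Female peer 8 had 111 members, against 45 in the next female peer, and members at 2.30% of all its nuclei without thinning, against 1.29%. Male peer 5 had 94 members, against 59.

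Male mate 2, the shallow library, stood apart in Cpne7 (1717 CPM in members, next 760), Pcdh8 (160 CPM, next 85.4) and Grin3a (280 CPM, next 170). The gate asks for at least 1 Cpne7 UMI per member at any depth, and the median nucleus of this library held 662 UMIs. Its Cpne7 value was thus bound to the gate and the depth. The Pcdh8 and Grin3a values rest on the few UMIs of 35 members. Male peer 1 stood apart in Col24a1 (244 CPM, next 75.9) and in the myelin gene Cldn11 (150 CPM, next 40.9). Its oligodendrocyte marker sum in members, 1768 CPM, was the highest of all animals. Cldn11 was also at 24.9 CPM in female peer 8, with the other female peers at 0, and Selenop at 136 CPM in female peer 7 (next 16.5).

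Among the genes that marked members, Rxfp1 was at 358 CPM in male peer 10 (next 194), Tac1 at 1709 CPM in male peer 8 (next 750) and Iqsec3 at 58.4 CPM in male peer 9, the lowest (next 120). Among those that were lower, Cacna2d3 was at 716 CPM in male peer 7 (next 409), Ano3 at 259 CPM in male mate 1 (next 160) and Kctd1 at 136 CPM in male mate 5 (next 81.6). In the group comparisons, Kdm5c was at 357 CPM in female peer 2 (next 242), Erlec1 at 231 CPM in male mate 3 (next 154), and Nrbp2 at 162 CPM in male mate 8 (next 107) and 133 CPM in male peer 8 (next 83.9).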

How the results depend on the processing

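Of 6964 genes tested, 1976 (28.4%) differed between members and other D2-gated nuclei. The alternatives tested different numbers of genes, so counts are given with them. They were 3368 of 17040 without the low-count filter (923 higher, 2445 lower) and 871 of 8136 with the stricter gate of 2 UMIs (10 animals). The medium spiny subset gave 987 of 5467 (18.1%) and cluster 2, as a description, 207 of 3935 (5.26%). Without male mate 2 the count was 2002 of 6967, and without female peer 1 it was 2029 of 7353. The D2 and D1 comparison called 183 of 7504 genes in the main fit and 337 of 16865 without the filter. It called 33 of 8328 in nuclei of 1500 to 3000 UMIs and 51 of 9085 in the medium spiny subset (5 animals each). Without the animal block 55 of 7504 were called, and with at least 5 nuclei of each kind (38 animals) 971 of 7814. Without female peer 1 there were 187 of 9844. The stricter gate left too few animals for that comparison and for pairing, sex and interaction, and was not run there. For sex, 2 genes of 3776 were called by DESeq2 and with label blocks, and 3 of 15001 without the filter. None was called at 1500 to 3000 UMIs (3073 genes) or in the medium spiny subset (2851 genes). For pairing averaged over the sexes and for the interaction no alternative that was run called a gene. Within females alone, mate minus peer called 1 gene of 15001 (lower in mates) without the filter, and 0 in the main fit. Within males alone 0 were called in both. Differences in share, none past the threshold, changed sign: mate minus peer of D2-gated nuclei to -0.654 without thinning and -0.0486 at 500 UMIs, female minus male to -0.0667 at 500 UMIs, and the interaction to 0.36 without female peer 1 (-0.0895 without male mate 2). Of all nuclei, female minus male became -0.0299 at 500 UMIs, and the interaction -0.0195 at 500 UMIs and -0.0287 in the medium spiny subset. Of 67 named genes 63 were tested with the stricter gate, where Fosb turned (-0.24) and 5 no longer passed (Col11a1, Gabra3, Kcnip3, Pcdh19 and Rora). In nuclei of 1500 to 3000 UMIs 64 were tested, of which 0 turned and 2 no longer passed. Within cluster 2, as a description only, 12 of 39 kept their direction and were not called. There 8 turned: Sphkap (-0.0879), Cpne8 (-0.0622), Col11a1 (-0.14), Sema5b (-0.054), Tac1 (-0.48), Gabra3 (-0.0177), Pcdh20 (-0.0614) and Pcdh7 (-0.23). The causes were not tested. Comparisons of classes within animals had the animal as a block. Animals of consecutive label numbers as a block (limma-voom, chosen after seeing the data, correlation within pairs 0.0735) gave 3 genes for sex, Kdm5c, Kdm6a and Adamts16 (lower in females), and 0 for pairing and for the interaction. Members hold few UMIs in some animals, so low genes were not detectable at this depth.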
